A study of Mus musculus with 16 samples.

Results

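The transcription factors that switch cells between epithelial and mesenchymal states, and the cadherins whose exchange marks that switch, were followed in mouse melanoma and in arrays labelled as melanocytes. The set was chosen by gene symbol, as the genes Snai1, Twist1, Twist2, Zeb1 and Zeb2 and the cadherin genes Cdh1, Cdh2, Cdh3, Cdh11 and Cdh13. Every probe set that carried 1 of these symbols alone was taken, which gave 14 probe sets for all 10 genes, out of 22626 probe sets and 12393 genes on the array. Of the genes, 3 had more than 1 probe set, and a gene was then represented by its brightest one. Levels are log2 signals after quantile normalization, so that 1 unit is a 2-fold change, and signals under log2 6.21, the 40th percentile of the whole table, were treated as near background.

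Cadherins are calcium-dependent adhesion molecules that join like to like across cell borders and anchor to actin through catenins. E-cadherin (Cdh1) and P-cadherin (Cdh3) hold epithelial cells together, and skin melanocytes use them to sit among keratinocytes, whereas N-cadherin (Cdh2) and cadherin-11 (Cdh11) are typical of neural, mesenchymal and many melanoma cells. T-cadherin (Cdh13) is an atypical member with a lipid anchor and no cytoplasmic tail. The SNAIL and ZEB zinc finger proteins and the basic helix-loop-helix TWIST proteins are repressors of E-cadherin in many carcinomas; in melanocytes Zeb2 and Snai2 belong to the normal lineage programme, and Zeb1 and Twist1 are the factors associated with dedifferentiated melanoma.

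The arrays fall into 3 groups. The iMet tumours, with 6 arrays, arose in mice carrying Tyr-rtTA and Tet-Met without Ink4a/Arf (Ink4a/Arf-/-). The iHRAS* tumours, also with 6 arrays, came from mice with Tyr-rtTA and Tet-HRASV12G and the same Ink4a/Arf-/- deletion. In both, a tyrosinase promoter drives the tetracycline transactivator that turns on the oncogene in the melanocyte lineage, and both lack Ink4a and Arf. The remaining 4 arrays are labelled as melanocytes with no disease, and the labels give them no genotype. The labels give no age or treatment and do not say whether samples came from separate animals, so p-values measure the spread between these samples. The labels call the tumour material melanoma cells while the design text speaks of tumours.

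The labelled cell types were checked against their markers, because every gene described here is also made by cells other than melanocytes. On the melanocyte-labelled arrays 5 of the 9 melanocyte markers with a probe set lay below log2 6.21 on all 4 arrays (Mitf, Tyr, Tyrp1, Dct and Kit). The other 4 exceeded it on all 4. Sox10 stood at 9.66 ± 0.65 (SD, n = 4), while Pmel, Pax3 and Slc45a2 lay nearer log2 6.21, with means of 6.70, 6.56 and 7.08. In iMet tumours 5 of the 9 exceeded that level on no array and 2 on all 6, and in iHRAS* tumours 0 and 4. Of 13 keratinocyte markers, 9 exceeded it on all 4 melanocyte-labelled arrays, with basal keratin Krt5 at 12.57 ± 1.33 (SD, n = 4). So did 4 of 6 Schwann cell and neural crest markers, among them Erbb3 at a mean of 10.08, while 1 exceeded it on no array. All 8 fibroblast and all 8 macrophage markers exceeded it on every tumour array of both models. On all 4 melanocyte-labelled arrays 6 of the 8 fibroblast and 2 of the 8 macrophage markers exceeded it. The macrophage mean ranged from 10.92 to 11.59 in iMet and from 9.14 to 11.20 in iHRAS* tumours, against 4.97 to 5.50 on the melanocyte-labelled arrays. In such mixed samples fewer cells of a type and less RNA per cell cannot be told apart. The melanocyte-labelled arrays formed pairs, 1 with 3 and 2 with 4, whose fibroblast means were 10.54 and 11.22 against 8.67 and 8.20. For 8 of the 10 genes one pair lay wholly above the other. The pairs were read from these same arrays, and the share over all probe sets was not computed. The count therefore describes the arrays and is not a trait of these genes.

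Promoter windows were read for 4 of the 10 genes, Snai1, Twist1, Twist2 and Zeb2 (RefSeq, GRCm38.p6, from 250 bases before the transcript start to 50 after). Member windows on 1 chromosome were left out of the search, so a gene not listed here may still have a window in the reference. Those of Snai1 and Twist1 are shown because both genes were higher in the tumours of both models. SNAIL and ZEB proteins bind E-boxes, of the general form CANNTG, and favour CAGGTG, which reads CACCTG on the other strand; it is marked in capitals below. Every CAGGTG is also a CANNTG. The Snai1 window lies at chr2:167537945-167538244 on the plus strand and the Twist1 window at chr12:33957421-33957720 on the plus strand.
Snai1: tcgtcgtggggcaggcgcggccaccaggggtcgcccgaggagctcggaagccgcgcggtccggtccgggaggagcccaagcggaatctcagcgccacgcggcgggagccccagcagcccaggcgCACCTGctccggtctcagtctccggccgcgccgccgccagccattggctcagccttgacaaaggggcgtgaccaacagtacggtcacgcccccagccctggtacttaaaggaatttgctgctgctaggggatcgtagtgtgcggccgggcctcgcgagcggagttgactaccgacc
Twist1: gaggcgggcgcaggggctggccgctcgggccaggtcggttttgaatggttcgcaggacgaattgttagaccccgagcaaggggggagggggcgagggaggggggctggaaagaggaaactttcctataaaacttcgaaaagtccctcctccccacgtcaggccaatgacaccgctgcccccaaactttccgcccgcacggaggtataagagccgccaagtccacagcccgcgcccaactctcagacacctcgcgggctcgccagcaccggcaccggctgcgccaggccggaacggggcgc
The Snai1 window held 1 CACCTG, beginning at position −126 from the start, and no other CANNTG. The windows of Twist1 and Twist2 and the 4 windows of Zeb2 held no CANNTG on either strand. Among all 32851 windows of that length, 20.2% held CAGGTG or CACCTG and 72.3% held CANNTG. These matches describe letters in the windows and were not tested against the expression values.

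**Figure D1:**
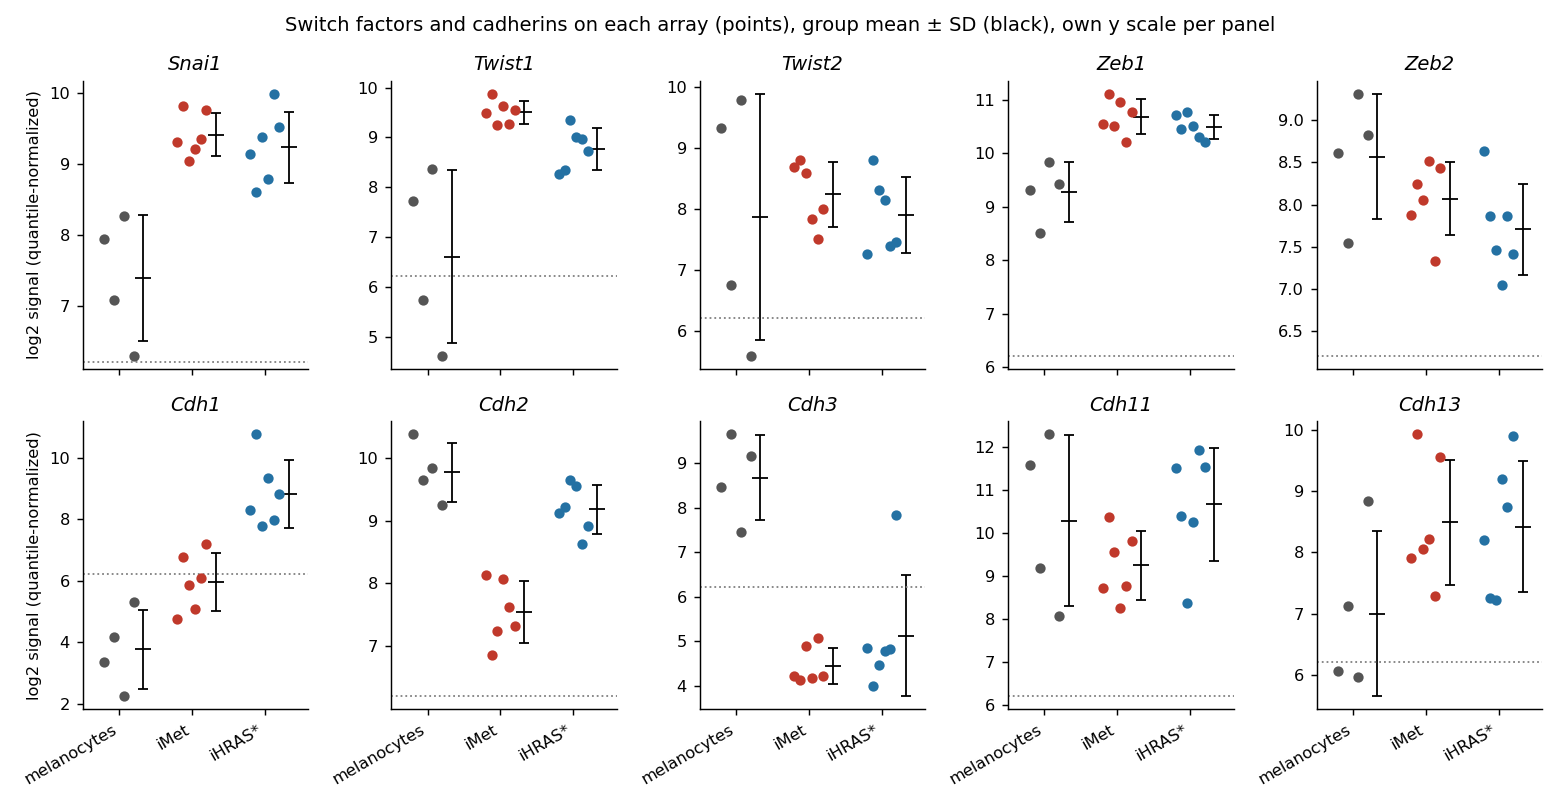
Quantile-normalized log2 signal (y axis, its own scale in each panel) of the 10 genes on each array (points), by group, with the group mean ± SD in black and the log2 6.21 level dotted. Snai1 and Zeb1 lie higher on all 12 tumour arrays than on any melanocyte-labelled array, mean Cdh1 is 3.77 in melanocyte-labelled, 5.96 in iMet and 8.82 in iHRAS* arrays, and Cdh2 is lowest in iMet tumours.

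The comparison of the models asked what separates tumours of a metastasis-capable lineage from those of one that is not, as the design text frames it. Both E-cadherin and N-cadherin were lower in iMet than in iHRAS* tumours, while Twist1 was higher. The other factors, Snai1, Twist2, Zeb1 and Zeb2, did not pass the test. Of the 14 probe sets 10 were bright enough to be tested and 4 were called at a limma adjusted p under 0.05, 1 higher (Twist1) and 3 lower (Cdh1 and both probe sets of Cdh2). Across all 13747 probe sets tested 19.3% were called, 11.0% higher and 8.33% lower in iMet tumours. The median difference was 0.12 over the 10 and 0.06 over all probe sets tested.

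E-cadherin, Cdh1, ranged from log2 4.76 to 7.19 with a median of 5.97 in iMet tumours. In iHRAS* tumours it ranged from 7.77 to 10.75 with a median of 8.55. The groups did not overlap, and only iMet arrays 2 and 6, at 6.78 and 7.19, exceeded log2 6.21. The difference was −2.86 ± 0.54 (SE), a 7.28-fold lower level (limma adjusted p = 0.00374), with a 95% interval of −4.03 to −1.70. Cdh1 entered the test because all 6 iHRAS* arrays exceeded the brightness limit, but with no such limit the adjusted p was 0.00900. Because most iMet values lie near background, the fold is less certain than the direction.

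Keratinocyte markers were set beside Cdh1. Of the 11 such markers tested, 2 were called lower in iMet tumours and 0 higher, against 19.3% of all probe sets called. The mean of all 13 ranged from 4.21 to 9.74 in iMet and from 8.15 to 10.82 in iHRAS* tumours. The mean differed by −2.51 (exact permutation p = 0.04762; adjusted p = 0.0714 over 21 tests of marker means). Within the iMet group Cdh1 was highest, at 6.78 and 7.19, in tumours 2 and 6, which had the highest keratinocyte means, 9.58 and 9.74. It was lowest, at 4.76 and 5.07, in tumours 1 and 4, which had the lowest means, 4.76 and 4.21. After each group mean was taken off, Cdh1 and the keratinocyte mean had Pearson r of 0.57 over 16 arrays and 0.49 over the 12 tumours. iHRAS* tumours 2 and 3 had lower keratinocyte means than iMet tumours 2 and 6, at 8.15 and 8.59, with Cdh1 higher, at 10.75 and 7.77. With the keratinocyte mean as a covariate the Cdh1 difference was −2.18 (limma adjusted p = 0.0516), and of the 4 called probe sets 2 were still called, those of Cdh2, while the share of all probe sets called went from 19.3% to 7.41%.

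N-cadherin, Cdh2, was measured by a pair of probe sets, both called. On the brighter (1418815_at) iMet tumours ranged from 6.87 to 8.14 with a median of 7.48, and iHRAS* tumours from 8.63 to 9.65 with a median of 9.17. On the other (1449244_at) the ranges were 7.0 to 8.04 and 8.40 to 9.02. Every iMet value lay below every iHRAS* value on both. The differences were −1.63 ± 0.24 (SE; limma adjusted p = 0.000952) and −1.18 ± 0.19 (SE; limma adjusted p = 0.00175). Among the iMet tumours Cdh2 was highest, at 8.14 and 8.07, in tumours 1 and 4, which had the lowest keratinocyte means, 4.76 and 4.21. It was lowest, at 6.87, in tumour 2, with a keratinocyte mean of 9.58. With that mean as a covariate the Cdh2 differences were −2.06 and −1.52 for the brighter and the dimmer probe set. After each group mean was taken off, Cdh2 and the Schwann cell and neural crest mean had Pearson r of 0.03 over 16 arrays. Over the 12 tumours it was −0.33. All 5 of these markers tested were called lower in iMet tumours, against 8.33% of all probe sets tested. The mean of the 6 with a probe set was 3.27 to 5.0 in iMet and 7.25 to 8.85 in iHRAS* tumours. The melanocyte marker mean was 5.35 to 5.98 and 5.98 to 7.71, and the part of either in the Cdh2 difference was not tested. Of the 10 member probe sets tested, groups were apart in range for 3, those of Cdh1 and Cdh2, against 10.1% of all probe sets tested.

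**Figure D2:**
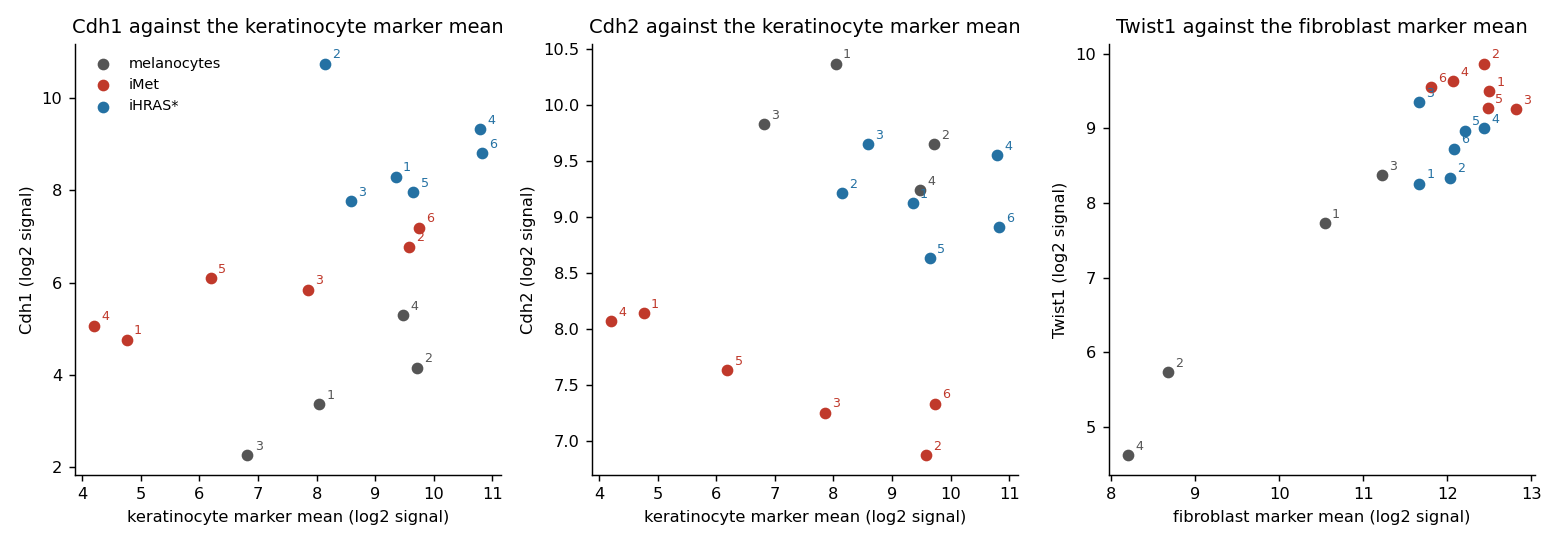
Log2 signal of Cdh1 and Cdh2 against the keratinocyte marker mean and of Twist1 against the fibroblast marker mean, 1 point per array with its number, coloured by group. iMet arrays 2 and 6 have the highest keratinocyte means of their group, 9.58 and 9.74, and its highest Cdh1, 6.78 and 7.19. Both Cdh1 values lie below Cdh1 on every iHRAS* array. The melanocyte-labelled arrays run from 4.62 to 8.37 in Twist1 as the fibroblast mean runs from 8.20 to 11.22.

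Twist1, which directs mesenchymal and neural crest-derived cell fates, ranged from 9.26 to 9.87 with a median of 9.52 in iMet tumours. In iHRAS* tumours it ranged from 8.26 to 9.35 with a median of 8.85. The ranges overlapped through iHRAS* array 3, at 9.35; the next highest iHRAS* value was 9.0. The difference was 0.74 ± 0.19 (SE) or 1.67-fold (limma adjusted p = 0.0175). The call was lost when all 16 arrays shared one estimate of the spread, at the same 0.74 (limma adjusted p = 0.290), and with the keratinocyte mean as a covariate, at 0.82 (adjusted p = 0.0626). Of 8 fibroblast markers 2 were called higher in iMet tumours, Pdgfra by 0.86 (adjusted p = 0.00366) and Dpt by 1.64 (adjusted p = 0.0448). Of all probe sets tested 11.0% were called higher. The endothelial mean was higher by 0.92 (exact permutation p = 0.008658, adjusted p = 0.0182). Fibroblast means lay at 11.80 to 12.81 in iMet and 11.66 to 12.44 in iHRAS* tumours, and with that mean as a covariate, chosen after the data were seen, Twist1 stood at 0.76 (adjusted p = 0.0468). The part of endothelial cells was not tested.

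The other 4 factors, Cdh11 and Cdh13 did not pass the test between the models. The difference of Snai1 was 0.18 (95% interval −0.31 to 0.68), of Twist2 0.34 (−0.33 to 1.00), of Zeb1 0.19 (−0.16 to 0.55) and of Zeb2 0.36 (−0.21 to 0.94). Cdh11, an adhesion molecule of mesenchyme and bone-forming cells, ranged from 8.26 to 10.38 in iMet and from 8.37 to 11.94 in iHRAS* tumours. Its difference of −1.42 ± 0.57 (SE), with a 95% interval of −2.65 to −0.18 that excludes 0, missed the threshold after adjustment (limma adjusted p = 0.0990), and without iHRAS* array 3, the lowest of its group at 8.37, it was −1.88 (adjusted p = 0.0114). Cdh13 on its brightest probe set differed by 0.07 (95% interval −1.12 to 1.26).

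P-cadherin, Cdh3, was too dim in the tumours to be tested between the models. It was below log2 6.21 on all 6 iMet arrays, at 4.14 to 5.07, and on 5 of 6 iHRAS* arrays, at 4.00 to 4.84. iHRAS* array 6 stood apart at 7.83. The other members that were not tested were the second probe set of Zeb1 (1420243_at), which reached at most 4.02 on any array, and the 2 dimmer ones of Cdh13.

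**Figure D3:**
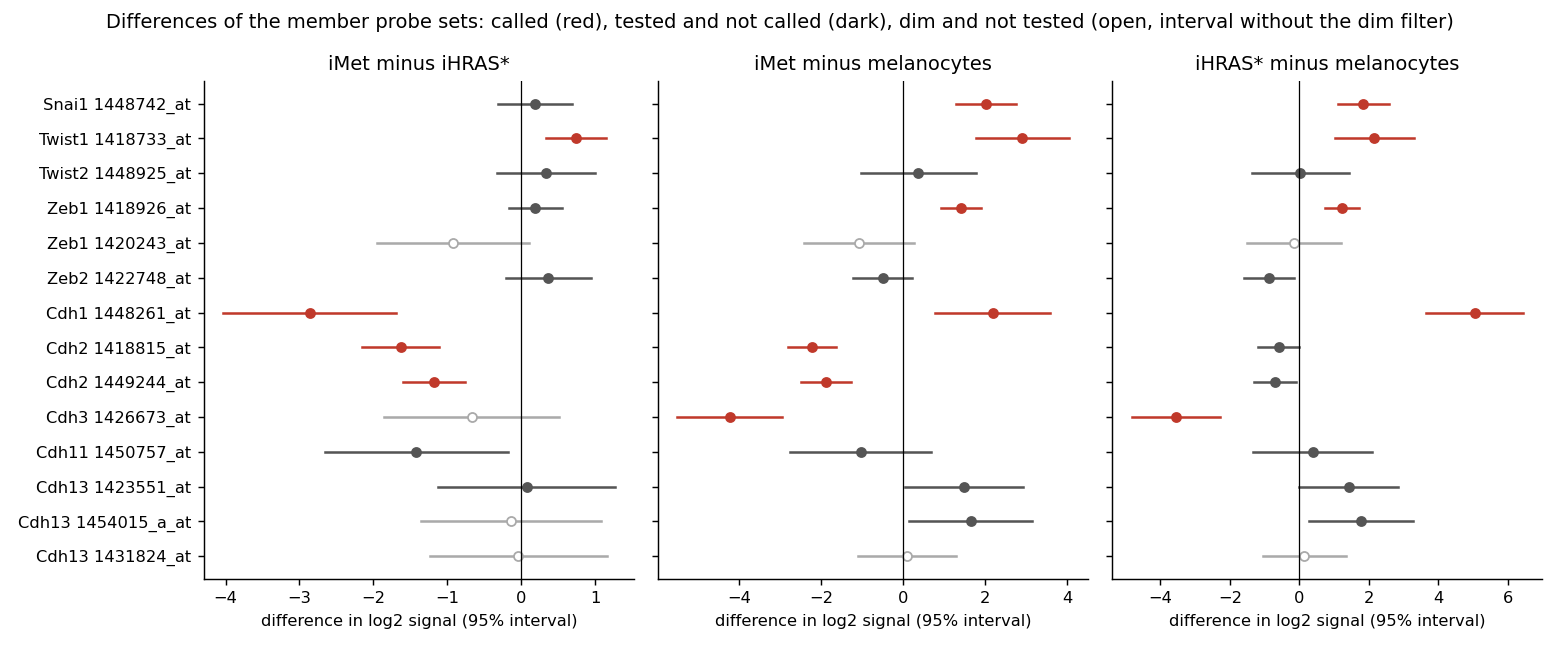
Differences in log2 signal (x axis) of the 14 member probe sets in the 3 comparisons, with 95% intervals from limma; called ones are red, uncalled ones dark, and dim ones that were not tested open. Cdh1 lies at −2.86 between the models but at 2.19 and 5.05 against the melanocyte-labelled arrays, and Cdh2 is below 0 in all 3 panels.

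Against the melanocyte-labelled arrays the tumours of both models had more Snai1, Twist1, Zeb1 and Cdh1 and less Cdh3, and iMet tumours also had less Cdh2. The number of member probe sets whose groups did not overlap was 6 of 12 for iMet and 3 of 12 for iHRAS* tumours, against 26.8% and 24.6% of all probe sets tested. For iMet tumours 7 of the 12 probe sets tested were called, 4 higher and 3 lower, where 32.5% of all 14999 probe sets tested were called, 14.9% higher and 17.5% lower. For iHRAS* tumours 5 of 12 were called, 4 higher and 1 lower, against 37.8% of all probe sets, 15.8% higher and 21.9% lower. The median difference of the 12 was 0.90 in iMet and 0.80 in iHRAS* tumours, against −0.09 and −0.13 over all probe sets tested. Both comparisons use the same 4 arrays as their reference. With the values as deposited or with each array centred on its median, 9 were called for iHRAS* tumours, 5 higher and 4 lower, against 41.1% and 43.8% of all probe sets tested. The added calls were Zeb2 at −1.03 or −1.05, both probe sets of Cdh2 at −0.81 to −0.94, and a dimmer Cdh13 probe set (1454015_a_at).

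Snai1, the zinc finger repressor first linked to E-cadherin loss, stood at 7.94, 7.09, 8.27 and 6.30 on melanocyte-labelled arrays 1 to 4. It ranged from 9.05 to 9.82 with a median of 9.33 in iMet tumours and from 8.61 to 9.99 with a median of 9.26 in iHRAS* tumours. Every tumour lay above every melanocyte-labelled array. The increases were 2.02 ± 0.34 (SE), 4.05-fold, in iMet (limma adjusted p = 0.000472) and 1.83 ± 0.34, 3.57-fold, in iHRAS* tumours (adjusted p = 0.000872).

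Zeb1, the zinc finger factor of the dedifferentiated state, was at 9.32, 8.50, 9.83 and 9.43 on the melanocyte-labelled arrays. Its range was 10.21 to 11.11 in iMet and 10.21 to 10.78 in iHRAS* tumours, again with no overlap. It rose by 1.42 ± 0.23 (SE; limma adjusted p = 0.000307) and by 1.23 ± 0.23 (adjusted p = 0.000872). Zeb1 and its relative Zeb2 had opposite signs. Zeb2 stood at 8.61, 7.55, 9.31 and 8.82 on the melanocyte-labelled arrays and at 7.33 to 8.52 in iMet and 7.05 to 8.63 in iHRAS* tumours. Its differences, −0.50 ± 0.34 (limma adjusted p = 0.278) and −0.86 ± 0.34 (adjusted p = 0.0577), were not called, and the ranges overlapped. In iHRAS* tumours the decrease was called without melanocyte-labelled array 2 (−1.20, adjusted p = 0.0124), without iHRAS* array 1 (−1.05, adjusted p = 0.0215) and without iMet array 5 (−0.86, adjusted p = 0.0489).

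Twist1 and Twist2, near relatives in sequence, varied more among the melanocyte-labelled arrays than among the tumours. Twist1 was at 7.73 and 8.37 on arrays 1 and 3 and at 5.73 and 4.62 on arrays 2 and 4. It rose by 2.90 ± 0.53 (SE), 7.48-fold, in iMet (limma adjusted p = 0.000850) and by 2.16 ± 0.53, 4.48-fold, in iHRAS* tumours (adjusted p = 0.00557). Measured against arrays 1 and 3 alone the increases were 1.47 in iMet and 0.73 in iHRAS* tumours, the latter not called (adjusted p = 0.0770), and against arrays 2 and 4 alone 4.34 and 3.60. Twist2 was at 9.34 and 9.79 on arrays 1 and 3 and at 6.75 and 5.59 on arrays 2 and 4, while iMet tumours lay at 7.51 to 8.81 and iHRAS* tumours at 7.26 to 8.81. Its differences of 0.37 and 0.03 were therefore means of opposite directions. Against arrays 1 and 3 alone it was lower, by −1.32 (adjusted p = 0.0413) in iMet and −1.66 (adjusted p = 0.0151) in iHRAS* tumours, and against arrays 2 and 4 alone higher, by 2.07 (adjusted p = 0.00575) and 1.73 (adjusted p = 0.0130). The pairs were read from these same arrays, and Twist1 and Twist2 themselves separate them. The adjusted p-values against 1 pair are therefore description and test neither an increase nor a decrease.

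Fibroblast, endothelial and macrophage marker means were also higher in the tumours of both models. After each group mean was taken off, the fibroblast mean had Pearson r of 0.62 with Snai1, 0.85 with Twist1 and 0.27 with Zeb1 over 16 arrays. Over the 12 tumours these were −0.25, −0.06 and −0.51. Of 8 markers each, 6 fibroblast, 7 endothelial and 8 macrophage markers rose in iMet tumours, and 5, 7 and 8 in iHRAS* tumours. None of these markers fell. Of all probe sets tested, 14.9% rose in iMet and 15.8% in iHRAS* tumours. The fibroblast mean was 9.66 ± 1.45 (SD, n = 4) on the melanocyte-labelled arrays, 12.35 ± 0.36 (SD, n = 6) in iMet and 12.01 ± 0.31 (SD, n = 6) in iHRAS* tumours. The endothelial mean was 5.0 ± 0.40, 8.30 ± 0.57 and 7.39 ± 0.44 in the same order. Of 5 skeletal muscle markers 2 rose in iMet and 1 in iHRAS* tumours. The part of these cells in the increases was not tested.

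Cdh1 was lower on the melanocyte-labelled arrays than in tumours of either model, at 3.36, 4.16, 2.26 and 5.30, all below log2 6.21. It was higher by 5.05 ± 0.66 (SE) in iHRAS* tumours (limma adjusted p = 4.81e-05), with no overlap, and by 2.19 ± 0.66 in iMet tumours (adjusted p = 0.0187), where the ranges overlapped. The iMet call was lost without melanocyte-labelled array 1, at 2.05 (adjusted p = 0.0549), and without array 3, at 1.68 (adjusted p = 0.0713). The 13 keratinocyte markers had a mean of 8.51 ± 1.35 (SD, n = 4) on the same arrays, so these dim Cdh1 values stood beside bright keratins. The iMet comparison sets 4 of 4 melanocyte-labelled and 4 of 6 iMet arrays below log2 6.21 against each other, and Cdh1 passed the brightness limit through iHRAS* arrays; with no limit the adjusted p was 0.0297. The iHRAS* level was thus the highest of the 3, while the step between the other groups lies near background.

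P-cadherin went the other way. Cdh3 was at 8.46, 9.65, 7.45 and 9.17 on the melanocyte-labelled arrays, above all 6 iMet and 5 of 6 iHRAS* tumours. It fell by 4.23 ± 0.60 (SE) in iMet tumours (limma adjusted p = 0.000106). In iHRAS* tumours the difference was −3.56 ± 0.60 (adjusted p = 0.000406). It passed the brightness limit through the melanocyte-labelled arrays and 1 tumour only, and the adjusted p with no limit was 0.000234 and 0.000812. Without that limit the shares of all 22626 probe sets called were 21.2% and 27.0%, and 10.5% between the models. Of 13 keratinocyte markers tested 7 fell and 1 rose in iMet tumours, and 3 rose and 0 fell in iHRAS* tumours. With the brightness limit, 17.5% of all probe sets tested fell and 14.9% rose in iMet tumours. In iHRAS* tumours 21.9% fell and 15.8% rose. The part of keratinocytes in the Cdh3 decreases was not tested. In the tumours Cdh3 lay below log2 6.21, apart from iHRAS* array 6, so the size of both decreases is uncertain.

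Cdh2 stood at 10.37, 9.65, 9.83 and 9.24 on the melanocyte-labelled arrays. It fell by 2.22 ± 0.28 (SE), 4.67-fold, in iMet tumours (limma adjusted p = 3.48e-05) and the second probe set fell by 1.88 ± 0.28 (adjusted p = 0.000179), with no overlap on either. In iHRAS* tumours the differences were −0.59 ± 0.28 (adjusted p = 0.104) and −0.70 ± 0.28 (adjusted p = 0.0624), not called, and the ranges overlapped. The order of the means was iMet, iHRAS*, melanocyte-labelled, with the last step not passing. Cdh11 was at 11.59 and 12.30 on arrays 1 and 3 and 9.18 and 8.08 on arrays 2 and 4, and neither model passed the test against the 4 arrays together, at −1.03 and 0.38 (adjusted p = 0.347 and 0.732). Against arrays 1 and 3 alone Cdh11 was at −2.69 in iMet (adjusted p = 0.0279) and −1.27 in iHRAS* tumours (adjusted p = 0.262), and against arrays 2 and 4 alone at 0.62 (adjusted p = 0.607) and 2.04 (adjusted p = 0.0681). Cdh11 itself separates these pairs, which were read from the same arrays, so the p-values against 1 pair are description only. Cdh13 was at 6.06, 7.12, 5.97 and 8.84 there and at 7.29 to 9.92 in iMet and 7.22 to 9.90 in iHRAS* tumours. Its differences of 1.49 ± 0.67 and 1.42 ± 0.67 missed the threshold (adjusted p = 0.102 and 0.106) and passed it without array 4, at 2.11 (adjusted p = 0.0260) and 2.04 (adjusted p = 0.0277). Without that array 9 and 8 of the member probe sets were called in iMet and iHRAS* tumours, against 28.6% and 32.7% of all probe sets tested. Without arrays 2 and 4 the numbers were 11 and 9, against 22.2% and 22.6%.

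**Figure D4:**
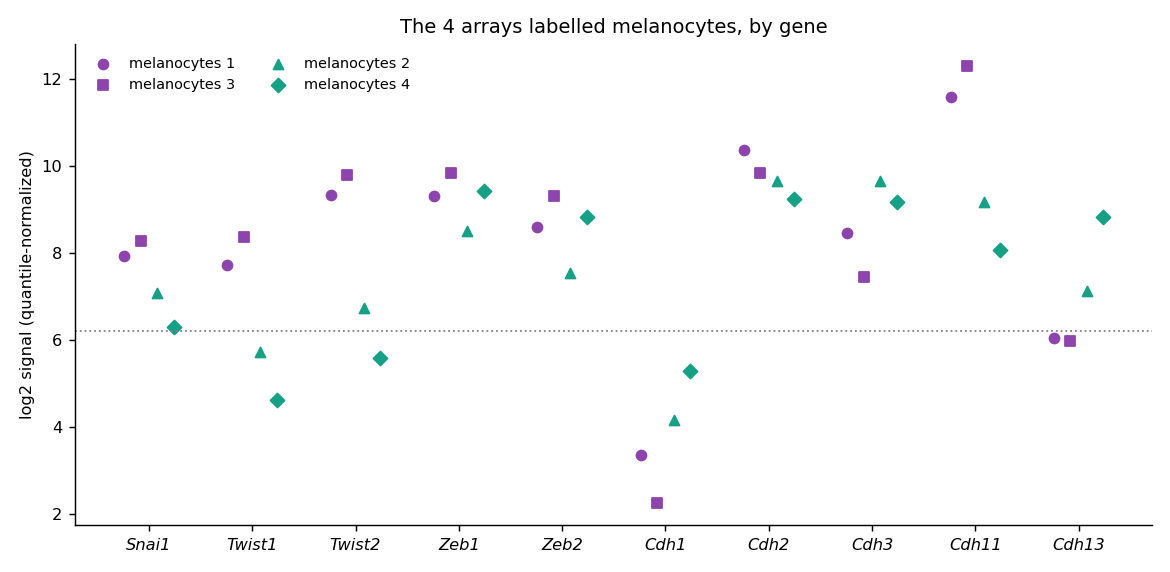
Log2 signal (y axis) of the 10 genes on the 4 arrays labelled as melanocytes, arrays 1 and 3 in purple and 2 and 4 in green, with the log2 6.21 level dotted. Arrays 1 and 3 are higher for Snai1, Twist1, Twist2, Cdh2 and Cdh11 and lower for Cdh1, Cdh3 and Cdh13, and the pairs overlap for Zeb1 and Zeb2.

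The genes around the switch were taken from 6 further lists. Against the melanocyte-labelled arrays 14.9% of all probe sets tested were called higher and 17.5% lower in iMet tumours. In iHRAS* tumours the shares were 15.8% and 21.9%. Lists this small give no reading against these shares. Of 10 other switch factors tested between the models, Foxc1, a forkhead factor of mesenchyme, rose by 1.32 ± 0.39 (SE) in iMet tumours and Id1, an inhibitor of helix-loop-helix factors, fell by 1.07 ± 0.34 (limma adjusted p = 0.0311 and 0.0418). The ranges of both genes overlapped, and with no brightness limit neither was called (limma adjusted p = 0.0559 and 0.0719). Between the models 19.3% of all probe sets tested were called, and so small a list gives no reading against that share. With the values as deposited 4 of the 10 rose and 0 fell, and Id1 was not called (adjusted p = 0.0806). Against the melanocyte-labelled arrays 2 rose and 2 fell in each model. Snai2, the SNAIL protein of the melanocyte lineage, fell in both, by 1.45 ± 0.40 in iMet (adjusted p = 0.0126) and 1.96 ± 0.40 in iHRAS* tumours (adjusted p = 0.00174), where Snai1 rose. Tcf4, an E-protein partner of TWIST, rose by 1.73 ± 0.29 and 1.18 ± 0.29. The list median was 0.19 between the models, and −0.47 and −0.31 against the melanocyte-labelled arrays.

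Of the 11 epithelial regulators with a probe set only 3 were bright enough to be tested between the models. Klf5, a zinc finger factor of basal epithelium, fell by 1.68 ± 0.38 (SE; limma adjusted p = 0.00919). Esrp1, which directs epithelial splicing, had means of 2.22 on the melanocyte-labelled arrays, 4.43 in iMet and 7.30 in iHRAS* tumours. It rose by 5.08 ± 0.80 in iHRAS* tumours (adjusted p = 0.000257) and was too dim to be tested between the models. In iMet tumours its difference was 2.21 ± 0.80 (adjusted p = 0.0466), but both means lie below log2 6.21 and the call was lost with no brightness limit (adjusted p = 0.0680). Of the 6 tested against the melanocyte-labelled arrays 1 rose in iMet and 2 rose in iHRAS* tumours, and none fell. The second in iHRAS* tumours was Klf4, an epidermal factor, at 1.36 ± 0.51 (adjusted p = 0.0465), which was not called with the values as deposited (adjusted p = 0.0710) or centred (adjusted p = 0.0836). The medians were −0.88 between the models, and −0.40 and 0.31 against the melanocyte-labelled arrays.

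Of 12 epithelial junction genes 4 were tested between the models and 1 fell. This was Epcam, an adhesion molecule of simple epithelia and of Langerhans cells, at −3.66 ± 0.79 (SE; limma adjusted p = 0.00742). Its means were 1.63 on the melanocyte-labelled arrays, 4.98 in iMet and 8.64 in iHRAS* tumours. The first 2 of these lie below log2 6.21, so the sizes are uncertain and the order of the dim groups is not read; with no brightness limit the adjusted p was 0.0167 between the models and 0.00877 for iMet against the melanocyte-labelled arrays. Of 5 tested against the melanocyte-labelled arrays 2 rose and 1 fell in iMet tumours, Epcam and the claudin Cldn1 (1.69 ± 0.49) against the polarity gene Llgl2 (−1.22 ± 0.32), and in iHRAS* tumours 1 rose, Epcam. Cldn1 in iHRAS* tumours was at 1.27 (adjusted p = 0.0519), and was called with the values as deposited and centred. The medians were −0.16 between the models and 0.10 and 0.24 against the melanocyte-labelled arrays. The tight junction scaffold Tjp1 differed by −0.13 between the models (95% interval −0.62 to 0.35).

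Of 6 catenins and partners tested between the models, 0 were called by limma and 1 had an unadjusted p under 0.05, against 19.3% of all probe sets called. So small a list gives no reading against that share. The median was −0.07. The largest difference was that of plakoglobin, Jup, at −0.88 ± 0.31 (SE; adjusted p = 0.0640). Against the melanocyte-labelled arrays 4 of 7 fell in each model, Ctnna1, Ctnnd1, Jup and Arvcf, and Pkp4 rose in iMet tumours, by 0.83 ± 0.28. Of all probe sets tested there, 17.5% fell in iMet and 21.9% in iHRAS* tumours, and the list is too small to be read against these shares. With centred values Pkp4 was not called (adjusted p = 0.0732), and with deposited values Arvcf was not called in iHRAS* tumours (adjusted p = 0.0541). Ctnnd1, the p120 catenin that keeps cadherins at the membrane, fell by 1.32 ± 0.20 (limma adjusted p = 0.000185) and 0.98 ± 0.20 (adjusted p = 0.00158). The medians were −0.44 and −0.35.

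Of the other cadherins, 12 had a probe set but only 2 were tested between the models. VE-cadherin, Cdh5, the junction molecule of vessels, was higher in iMet tumours by 1.27 ± 0.40 (SE; limma adjusted p = 0.0414), and Cdh6 was lower by 2.79 ± 0.84 (adjusted p = 0.0348). The iMet mean of Cdh6, 4.60, is near background against 7.39 in iHRAS* tumours, and with no brightness limit neither was called (adjusted p = 0.0710 for Cdh5 and 0.0609 for Cdh6). Of 8 endothelial markers 6 were called higher in iMet tumours, against 11.0% of all probe sets tested. The part of endothelial cells in the Cdh5 difference was not tested. Against the melanocyte-labelled arrays Cdh5 rose by 5.37 ± 0.67 in iMet and 4.10 ± 0.67 in iHRAS* tumours, and Cdh10, a neural cadherin, fell by 4.39 ± 0.69 in iMet tumours, to a mean of 2.47 from 6.86. Cdh10 was too dim to be tested with the values as deposited or centred. Of 3 tested there 1 rose and 1 fell in iMet and 1 rose in iHRAS* tumours. The median was −0.76 between the models. Medians against the melanocyte-labelled arrays rest on 3 genes and turned with the scaling, from −1.67 to 2.13 as deposited and 1.91 centred in iMet tumours, and from 1.12 to 2.70 and 2.69 in iHRAS* tumours, where 2 genes were tested.

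Mesenchymal genes changed in both directions. Of 8 tested between the models S100a4, a calcium-binding protein of motile cells, rose by 0.38 ± 0.12 (SE; limma adjusted p = 0.0432), while the matrix glycoprotein Tnc fell by 1.94 ± 0.54 (adjusted p = 0.0264) and the fibronectin receptor subunit Itga5 by 0.70 ± 0.22 (adjusted p = 0.0429), with a median of 0.02. Tnc alone was called under every scaling: S100a4 was at 0.24 (adjusted p = 0.317) as deposited and 0.03 (adjusted p = 0.940) centred, and Itga5 was at −0.58 (adjusted p = 0.0978) and −0.78 (adjusted p = 0.0673). Against the melanocyte-labelled arrays S100a4 rose by 1.78 ± 0.34 and 1.4 ± 0.34 and smooth muscle actin, Acta2, fell by 1.92 ± 0.67 and 3.03 ± 0.67. Tnc fell in iMet tumours by 2.75 ± 0.55 (adjusted p = 0.00158) and was at −0.81 in iHRAS* tumours (adjusted p = 0.255). As deposited, Acta2 in iMet tumours was at −1.76 (adjusted p = 0.0630). The medians were 0.16 and 0.14.

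**Figure D5:**
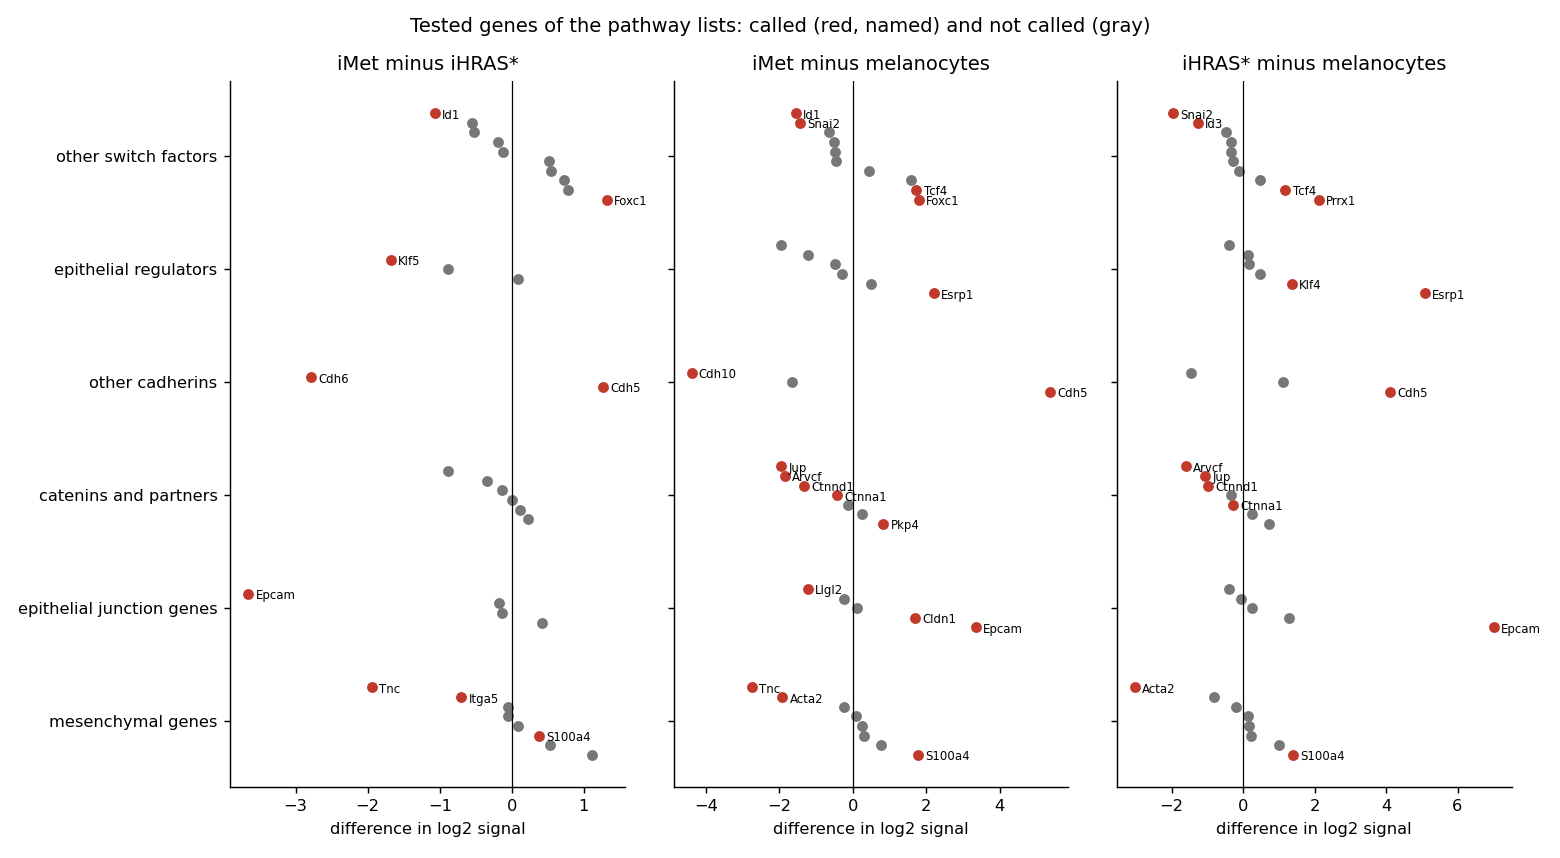
Differences in log2 signal (x axis) of every tested gene of the 6 pathway lists (rows) in the 3 comparisons, with called genes red and named. Epcam lies at −3.66 between the models and at 3.35 and 7.01 against the melanocyte-labelled arrays, and none of the catenins and partners is called between the models.

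The genes most like the called members were found from deviations from the group means over all 16 arrays, among 8650 other genes, and are given as a description. Twist1 was most like S100a4, Anxa6 and Osr1, with Pearson r of 0.95, 0.94 and 0.93, but over the 12 tumour arrays alone these were 0.61, 0.41 and 0.51. Cdh1 was most like Fgfr2, Il18 and Fam83h, each at 0.87, and at 0.82, 0.88 and 0.85 in the tumours alone. Cdh2 was most like Zfp787, Bud13 and Polr3a, at 0.91, 0.87 and 0.80, and at 0.94, 0.89 and 0.74 in the tumours. All these values share the arrays and their normalization. Twist1 followed the fibroblast mean with r of 0.85 over 16 arrays and −0.06 over the 12 tumours, and Twist2 with 0.86 and 0.26. Cdh2 and the keratinocyte mean had r of −0.68 and −0.71, and Cdh1 and that mean 0.57 and 0.49.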

How the data were processed

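RNA from 16 samples was hybridised to Affymetrix M430A_2 mouse arrays after oligo-dT priming and labelling by in vitro transcription, per the labels' protocols. The authors deposited 1 table of 22690 rows, whose values ran from −4.07 to 14.53 and were read as log2 signal; summarisation, normalization and centring are not given in the sources used here. Array medians ran from 6.56 to 7.28, so values were quantile-normalized after 64 control probe sets were left out. Genes were named by the platform annotation, and 20380 probe sets had 1 symbol. A probe set was tested if it exceeded the 40th percentile on at least 6 of the 12 tumour arrays, or at least 4 of 16 against melanocytes. Fits used limma 3.58.1 in R 4.3.3 (lmFit, eBayes, two-sided), with the 12 tumour arrays alone between the models and all 16 otherwise, and Benjamini-Hochberg adjustment over every probe set tested; adjusted p-values in the text come from these fits unless an exact permutation test, two-sided, is named. Marker means average the listed genes' representative probe sets. The fits were tested on simulated data. All member probe sets are described. From each of the 6 lists up to 4 genes with the smallest p in a comparison were eligible to be named, with called genes that went against their list; likeness was taken for member genes called between the models. The members and lists were chosen with earlier results of these data known. The same replicate numbers occur in all groups. Deviations of same-numbered arrays correlated at −0.25 to 0.10, and the numbers were not used to pair the samples. Such correlations cannot exclude a batch or pairing that follows the numbers, and a fit with the number as a block is given in the closing section. Met, checked as the engineered gene, stood at 8.39 to 9.98 in iMet and 5.42 to 7.46 in iHRAS* tumours. On the melanocyte-labelled arrays Met stood at 7.25 to 9.13, which overlaps the iMet tumours. Hras had no probe set with its symbol alone, so the other engineered gene was not checked. Alternatives are given in the closing section.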

Additional observations from a re-analysis of the deposited data

Results flagged for a closer look

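Values that stood apart from the rest of their group were looked for among 63 sets of member or marker values, of which chance alone would give about 1 in 20. Such a value was found in 3 of the 63, which is near that share. For Cdh3, iHRAS* array 6 stood at 7.83, while the other 5 lay between 4.00 and 4.84. The dimmest Cdh13 probe set (1431824_at) was highest on array 6 of both models, at 2.80 in iMet, where the others lay between 0.13 and 0.99, and at 3.31 in iHRAS* tumours, where the others lay between 0.21 and 1.01; these values are far below log2 6.21. On iHRAS* array 6 the melanocyte, keratinocyte, macrophage and Schwann cell and neural crest marker means were 7.71, 10.82, 11.20 and 8.85. Each of these was the highest of the iHRAS* group, while the fibroblast, endothelial and skeletal muscle means were not.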

How the results depend on the processing

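Between the models 4 member probe sets were called; the number was 2 with the keratinocyte mean as a covariate, and 4 to 5 when any 1 array was left out. For iMet tumours against melanocytes 7 were called, 6 to 9 without any 1 array and 11 without melanocyte arrays 2 and 4. For iHRAS* tumours 5 were called, 5 to 8 without any 1 array (8 without melanocyte array 4), 9 without melanocyte arrays 2 and 4, 9 as deposited and 9 with each array centred on its median. Twist2 reversed without melanocyte arrays 2 and 4, at −1.32 and −1.66. With the replicate number as a block (replicate block) 3, 7 and 5 were called, against 12.8%, 25.5% and 31.3% of all probe sets tested. Twist1 between the models (0.74) then had a limma adjusted p of 0.0692. Averaging the probe sets of a gene ended both calls of Zeb1 against melanocytes, at 0.17 and 0.54, since its second probe set is near background, and counts 10 genes in place of 14 probe sets. As deposited, the median of all probe sets tested was 0.26 in place of 0.06 between the models and −0.24 in place of −0.13 in iHRAS* tumours against melanocytes; centred, it was −0.22 in place of −0.09 for iMet and −0.25 for iHRAS* tumours against melanocytes. No gene of the 6 pathway lists that was called and tested under another scaling turned its sign there (0 genes); this check was added after seeing the data. The other alternatives changed no number of calls by more than 1.5 times: no brightness limit or one at the 20th or 60th percentile, 1 probe set per gene, an intensity trend, other arrays in the fit, leaving out iHRAS* arrays 5 and 6 or melanocyte arrays 1 and 3, and the fibroblast covariate, chosen after seeing the data. The number of arrays and the nearness of Cdh1, Cdh3 and Twist1 to background in some groups limit the precision.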
